A study of Penicillium oxalicum with 24 samples.

Results

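Among the cellulose cultures of *Penicillium oxalicum*, 26 of 9832 genes were low in the strain lacking both *creA* and *clrB* while neither single deletion lowered them as far. They were chosen by their mean RPKM (unique reads on a gene scaled to its length and to the library total) over 3 libraries per group. The wild-type strain, Δ*clrB* and Δ*creA* each had to reach 10 RPKM on cellulose, which 6200 genes did. Of these, 40 had a Δ*creA*-Δ*clrB* mean of at most 0.4 times each of the 3 other means, and 26 of the 40 had a mean in Δ*creA-gpdA*(p)::*clrB* above the wild-type mean divided by 3. The other 14 did not meet this last condition. Differences among these 5 groups chose the genes, so they are given below as descriptions and were not tested.

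RNA was sequenced from 24 libraries, 3 for each of 8 groups. The wild-type strain was sampled after 4 h without carbon, on 2% glucose or on 2% cellulose, and 5 mutants were sampled after 4 h on 2% cellulose. All cultures had first grown for 22 h on 2% glucose. A carbon-free step of 2 h came next, which the sample labels leave out for the wild-type cultures without carbon and the study's methods state for all. The mutants carried a deletion of *clrB* (Δ*clrB*), of *creA* (Δ*creA*), of both (Δ*creA*-Δ*clrB*), of *amyR* (Δ*amyR*), or a *creA* deletion with *clrB* driven by a *gpdA* promoter from *Aspergillus nidulans* (Δ*creA-gpdA*(p)::*clrB*). Both combined strains received the same *creA* deletion cassette as Δ*creA*, in a Δ*clrB* or a *clrB*-overexpressing parent. All strains descend from the same wild-type isolate as selected transformants, so a strain-specific change outside the named genes cannot be told apart from the named deletion.

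ClrB is a zinc-cluster transcription factor that switches on cellulase genes when the fungus meets cellulose. CreA is the DNA-binding repressor of carbon catabolite repression, which keeps genes for the use of poorer carbon sources low while glucose is present. AmyR activates genes for starch breakdown, and the study reports that it represses cellulase genes on cellulose. A gene that falls when an activator is lost and rises when a repressor is lost is the textbook pattern for fungal cellulase genes. The choice of the 26 genes neither required nor excluded this pattern, and PDE_06944, described below, showed it.

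The libraries held, as group means, 7515861 (Δ*clrB*) to 8452897 (Δ*creA-gpdA*(p)::*clrB*) uniquely mapped reads on genes. *clrB* had at most 3 reads in each Δ*clrB* and Δ*creA*-Δ*clrB* library, and *creA* had at most 2 in the 9 libraries of the strains that lack it. *amyR* had at most 1 read in each Δ*amyR* library. The 20 most abundant genes of a library took 10.4 to 10.6% of the reads in the wild-type strain on cellulose, 24.5 to 25.3% in Δ*creA* and 18.1 to 20.9% in Δ*creA*-Δ*clrB*. RPKM is relative to the library total, and the median log2 difference from the wild-type on cellulose over the 9176 genes tested was -0.45 for Δ*creA*, -0.43 for Δ*creA*-Δ*clrB* and -0.73 for Δ*creA-gpdA*(p)::*clrB*.

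In the double deletion strain the 26 genes had 0.0746 to 0.398 of their wild-type mean on cellulose, with a median of 0.247. The wild-type mean was 2.52 to 13.4 times the Δ*creA*-Δ*clrB* mean, with a median of 4.06. The single deletions left most of the level: the median was 0.756 of the wild-type in Δ*clrB* and 0.981 in Δ*creA*. All these values use library totals. TMM scaling corrects for a few abundant genes taking up reads. With it the double deletion had 0.102 to 0.546 of the wild-type mean, with a median of 0.339. These values are relative to all RNA of the mycelium, so fewer cells that express a gene and less of its RNA per cell cannot be told apart. The 3 Δ*creA*-Δ*clrB* libraries lay below all 9 libraries of the wild-type on cellulose, Δ*clrB* and Δ*creA* for 24 of the 26 genes, against 12.2% of all genes tested and 13.5% of the 6200, a difference the choice of genes builds in. The exceptions were PDE_01191 and PDE_07936.

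The word "only" holds for the comparison that chose the genes and not across all 8 groups. The wild-type on glucose had the lowest mean of the 8 groups for 14 genes, Δ*creA*-Δ*clrB* for 11 and Δ*amyR* for 1. These counts use library totals and were not set beside those of all genes, so they are not read as particular to the set. The 3 Δ*creA*-Δ*clrB* libraries were below all 21 others for 9 genes, against 2.11% of all genes tested and 2.5% of the 6200, a contrast that the choice largely fixes, since 12 of the 21 libraries belong to groups it used. With library totals Δ*creA-gpdA*(p)::*clrB* stood below the wild-type, Δ*clrB* and Δ*creA* in 13 genes, although its mean was above that of Δ*creA*-Δ*clrB* in every one of the 26. Its median was 0.698 of the wild-type mean, with a range of 0.337 to 1.89. The median log2 difference of all genes tested was itself -0.73 in this strain. With TMM scaling it stood below those 3 groups only in PDE_01191, PDE_02288, PDE_03786, PDE_05223, PDE_05323, PDE_07212, PDE_07433 and PDE_09700.

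**Figure D1:**
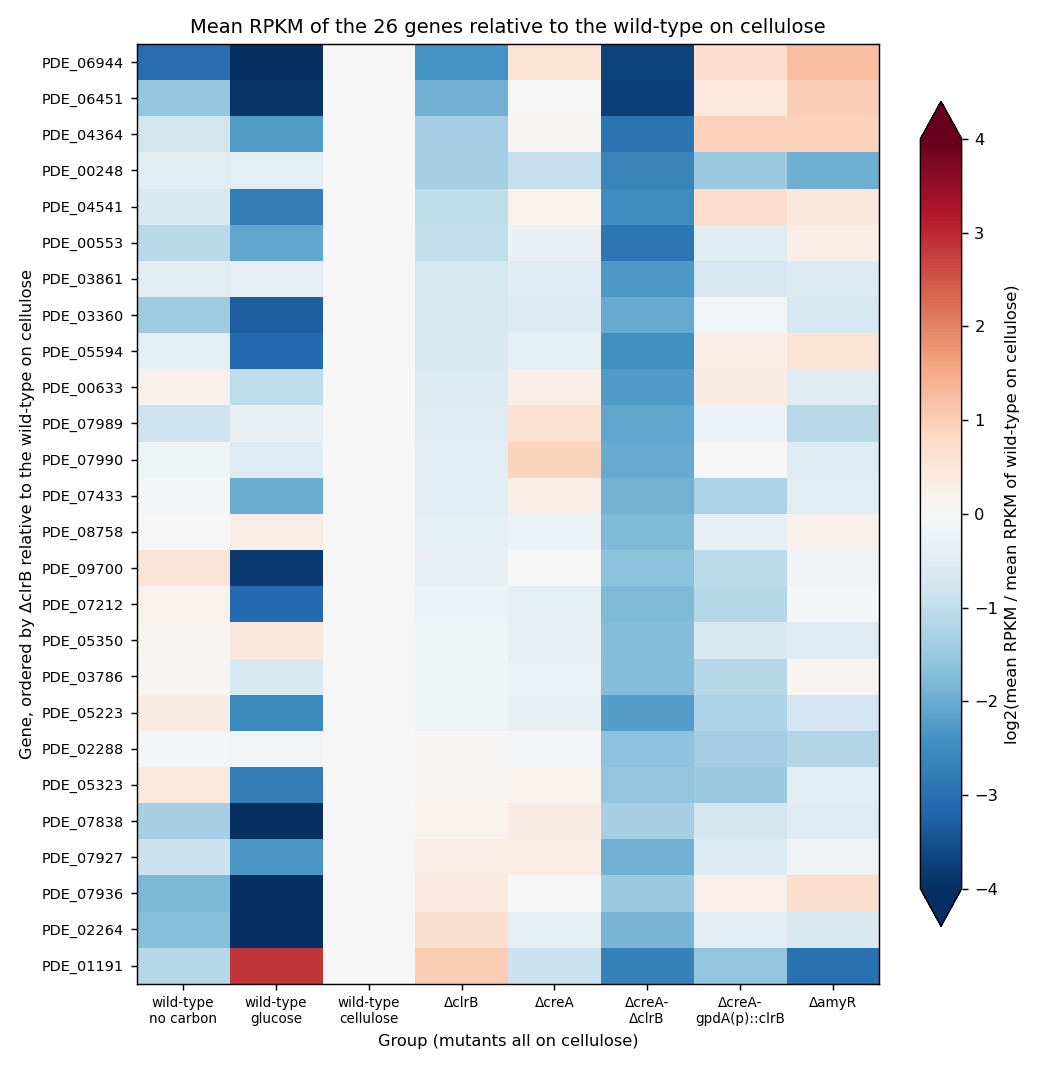
Each row is 1 of the 26 genes and each column 1 of the 8 groups; colour gives log2 of the group's mean RPKM over the mean of the wild-type on cellulose (3 libraries per group, values past 4 in either direction take the end colour). The Δ*creA*-Δ*clrB* column is blue throughout, the glucose column is darker still for many rows, and the 5 top rows are also blue in Δ*clrB*, with at most 0.5 of the wild-type mean.

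The genes differed in what each single deletion did. With library totals Δ*clrB* was below the wild-type in 19 genes and Δ*creA* in 15. Both were below it in 11 genes, Δ*clrB* alone in 8, Δ*creA* alone in 4, and neither in 3. This split depended on scaling and was not set beside the same split over all genes. With TMM scaling Δ*creA* was below the wild-type only in PDE_00248, PDE_01191, PDE_03360 and PDE_03861. PDE_05594, for example, then had 74.1 RPKM in Δ*creA* against 70.0 in the wild-type on cellulose. In 5 genes the Δ*clrB* mean with library totals was at most 0.5 of the wild-type mean, and the double deletion stood lower again. They were PDE_06944, PDE_06451, PDE_04364, PDE_00248 and PDE_04541. As an assumed reference, the effects of the 2 deletions were multiplied: the product of the Δ*clrB* and Δ*creA* means was divided by the wild-type mean. The Δ*creA*-Δ*clrB* mean was 0.138 to 0.742 of that product with library totals, with a median of 0.314. The median over the 6200 genes above 10 RPKM was 1.16. With TMM scaling these medians were 0.275 and 1.01. The choice of genes fixes most of this gap.

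Annotation was at hand for 1057 of the 9832 genes and for 13 of the 26, and 6 of these 13 are listed as hypothetical proteins with no function given. The other 7 are 3 glycosidases, 2 peptidases, a ClpX-type protein and a metal-ion oxidoreductase. The annotation covers too few genes for a share of any class to be read. No sequence of these genes was used here.

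PDE_06944 is a putative α-xylosidase, an enzyme type that removes xylose side chains from plant xyloglucan. Its RPKM was 97.3, 102 and 86.9 in the wild-type on cellulose and 144, 134 and 137 in Δ*creA*. It was 18.7, 17.6 and 19.4 in Δ*clrB* and 8.54, 7.57 and 5.70 in Δ*creA*-Δ*clrB*. The 4 groups did not overlap, and the gene lay highest in Δ*creA* of the 4 and lowest in the double deletion. In Δ*creA-gpdA*(p)::*clrB* the libraries had 97.9, 148 and 221 RPKM, from the wild-type level to above all Δ*creA* libraries. With TMM scaling its mean there was 219 RPKM, against 159 in Δ*creA* and 79.6 in the wild-type on cellulose. With library totals Δ*amyR* was the highest group, at 220 ± 17.4 RPKM (SD, n = 3), and the wild-type on glucose the lowest, at 3.31 ± 0.920 (SD, n = 3).

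PDE_06451, a putative α-L-rhamnosidase that would release terminal rhamnose from plant glycans, had the greatest fold reduction of the set in the double deletion. It had 50.1, 42.7 and 44.6 RPKM in the wild-type on cellulose and 46.0, 42.1 and 47.8 in Δ*creA*. It had 8.31, 13.1 and 14.9 in Δ*clrB* and 3.97, 3.71 and 2.57 in Δ*creA*-Δ*clrB*. With library totals the wild-type and Δ*creA* libraries overlapped, whereas every Δ*clrB* library was below them and every double deletion library was below those of Δ*clrB*. With TMM scaling the mean was 52.1 RPKM in Δ*creA* against 38.2 in the wild-type on cellulose. With library totals the double deletion level, 3.42 ± 0.741 RPKM (SD, n = 3), lay close to the 3.04 ± 0.260 (SD, n = 3) of the wild-type on glucose. With TMM scaling the double deletion had 3.91 RPKM. The effective sizes of the glucose libraries were then 1.16 to 1.21 times their totals, which lowers their values, so the gap was wider.

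PDE_00248, a SUN domain-containing protein that is also annotated as a glycosidase, lay below the wild-type in both single deletions. Its libraries had 63.3, 79.1 and 95.1 RPKM in the wild-type on cellulose, 39.6, 33.3 and 21.2 in Δ*clrB*, and 44.8, 38.2 and 42.7 in Δ*creA*. The double deletion had 18.2, 10.6 and 8.14 RPKM. Here the product of the single deletions was 16.6 RPKM against a measured mean of 12.3 RPKM, so the double deletion was close to that product. PDE_00248 was kept in the set by 9 of the 15 choices that left out 1 library of the 5 groups.

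PDE_07927 is annotated as aspergillopepsin I, a secreted acid aspartic endopeptidase of filamentous fungi. Its Δ*creA*-Δ*clrB* libraries had 216, 217 and 173 RPKM. The wild-type on cellulose had 944, 577 and 764, and Δ*creA* had 960, 819 and 1003. Δ*clrB* had 1747, 524 and 507, so 1 library set its mean of 926 RPKM, yet each of the 9 libraries stood above the double deletion. PDE_07927 had the lowest ratio to the lowest of the 3 means, 0.265, and stayed in the set with each of the 15 libraries left out in turn.

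The gene sits, by its locus number, next to the cellulase genes PDE_07928 and PDE_07929, which behaved otherwise. The mean RPKM of PDE_07928 was 45.9 in Δ*creA*-Δ*clrB* and 30.7 in Δ*clrB*, with 4676 in Δ*creA* and 705 in the wild-type on cellulose. PDE_07929 had 85.4, 40.0, 7070 and 718 RPKM in the same order. Both cellulase neighbours were thus at least as high in the double deletion as in Δ*clrB*, and PDE_07927 was not.

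PDE_07936, with metalloendopeptidase activity in its annotation, was the most abundant of the 26, with a mean of 2015 RPKM over all 24 libraries. The double deletion had 693, 1043 and 844 RPKM. The wild-type on cellulose had 3588, 1368 and 2216, Δ*creA* had 2750, 1657 and 2749, and Δ*clrB* had 7131, 666 and 1680. The second Δ*clrB* library was below all of the double deletion libraries, so Δ*clrB* and Δ*creA*-Δ*clrB* overlapped. PDE_07936 left the set without the first wild-type library on cellulose or the first Δ*clrB* library.

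PDE_04541 is annotated as the ATP-binding subunit ClpX of the Clp protease, which unfolds proteins for degradation. It was 155, 161 and 156 RPKM in the wild-type on cellulose and 173, 177 and 173 in Δ*creA*. It was 71.5, 80.5 and 80.4 in Δ*clrB* and 43.5, 22.0 and 18.6 in Δ*creA*-Δ*clrB*. The replicates of the first 3 groups lay close together and those of the double deletion did not, the first library being the highest. Δ*creA-gpdA*(p)::*clrB* was the highest of the 8 groups, at 254 ± 45.7 RPKM (SD, n = 3).

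PDE_03360 falls in the enzyme class that oxidises or reduces metal ions. It had 69.5, 62.0 and 83.6 RPKM in the wild-type on cellulose, 51.4, 48.3 and 37.7 in Δ*clrB*, and 53.8, 39.5 and 54.6 in Δ*creA*. The double deletion had 17.8, 15.7 and 19.7 RPKM. Each single deletion mean was below the wild-type mean, and with library totals the 2 single deletions overlapped each other. On the same scale its level in Δ*creA-gpdA*(p)::*clrB*, 65.9 ± 8.30 RPKM (SD, n = 3), lay within the range of the wild-type libraries. With TMM scaling it had 91.9 RPKM there against 59.8 in the wild-type on cellulose.

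**Figure D2:**
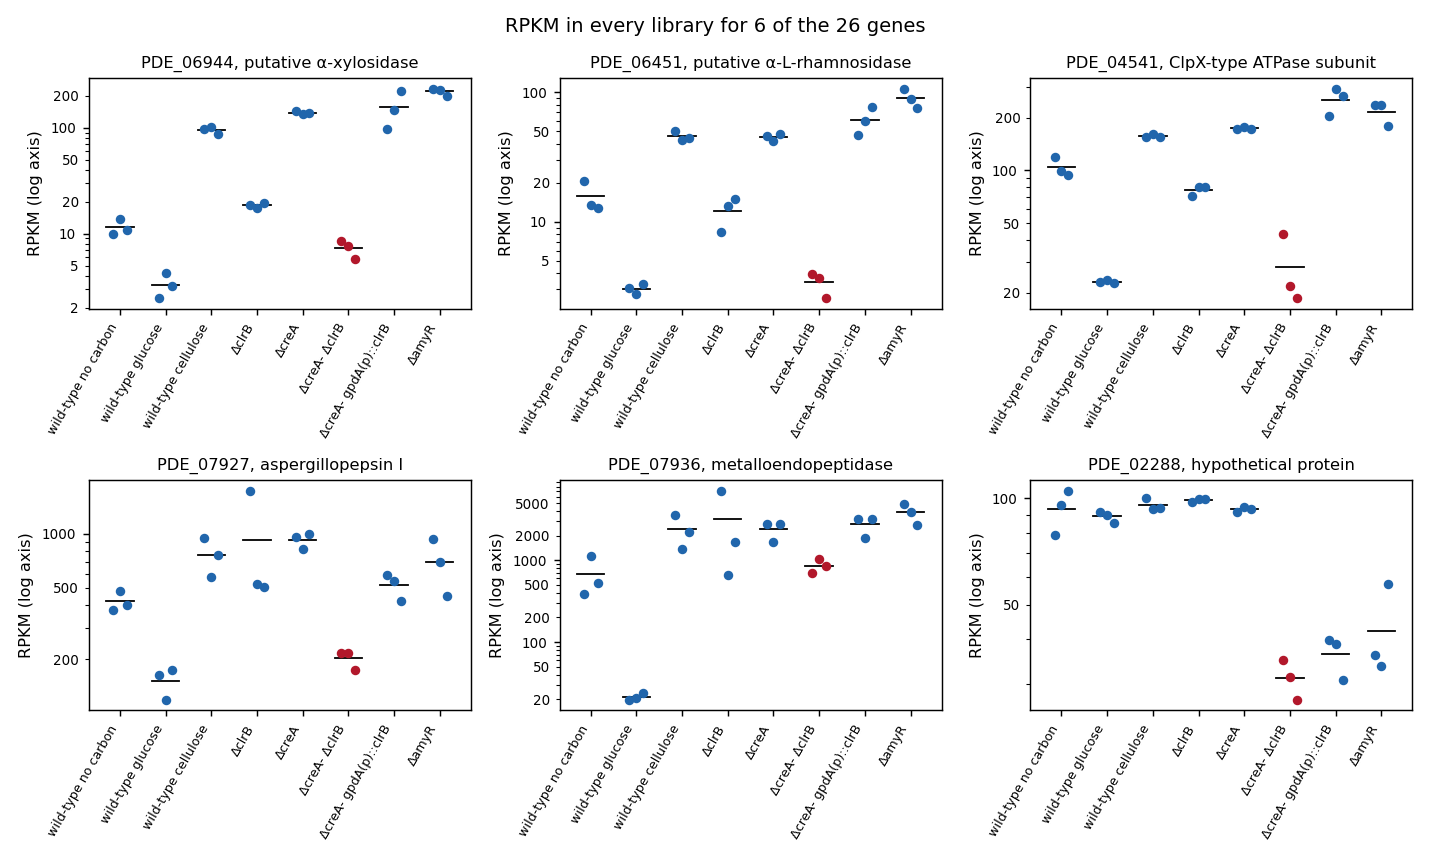
RPKM on a log axis in each of the 24 libraries (points, with the Δ*creA*-Δ*clrB* libraries in red) and the mean of each group of 3 (bars) for 6 genes; mutants were grown on cellulose. All values use library totals. On this scale the upper 3 genes had a Δ*clrB* mean of at most 0.5 of the wild-type mean on cellulose. PDE_07927 and PDE_07936 each had 1 high Δ*clrB* library, and PDE_02288 was level in 5 groups and low in the other 3.

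With library totals PDE_02288, a hypothetical protein, was level across most of the design. Its means were 93.1 ± 13.4 RPKM in the wild-type without carbon, 89.0 ± 3.29 on glucose, 95.8 ± 3.98 on cellulose, 98.7 ± 1.23 in Δ*clrB* and 93.2 ± 1.71 in Δ*creA* (SD, n = 3). Δ*creA*-Δ*clrB* had 34.9, 31.2 and 27.0 RPKM. It was not alone in being low: Δ*creA-gpdA*(p)::*clrB* had 39.8, 38.9 and 30.7 RPKM and Δ*amyR* had 36.1, 33.7 and 57.1. Those 2 groups overlapped the double deletion.

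PDE_00553, another hypothetical protein, had 203, 235 and 225 RPKM in the wild-type on cellulose, 115, 103 and 114 in Δ*clrB*, and 197, 161 and 186 in Δ*creA*. The double deletion had 35.5, 24.3 and 29.8 RPKM, the lowest 3 of all 24 libraries.

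PDE_04364, also hypothetical, had 49.1, 66.7 and 64.0 RPKM in the wild-type on cellulose and 67.9, 52.3 and 64.1 in Δ*creA*. It had 25.9, 22.6 and 21.1 in Δ*clrB* and 9.68, 7.32 and 6.59 in Δ*creA*-Δ*clrB*. Thus with library totals Δ*creA* overlapped the wild-type and the 2 strains without *clrB* did not overlap each other. Δ*creA-gpdA*(p)::*clrB* had 56.9, 94.7 and 188 RPKM, from within the wild-type range to far above it. With TMM scaling the means were 49.9 RPKM in the wild-type on cellulose, 70.5 in Δ*creA* and 159 in Δ*creA-gpdA*(p)::*clrB*.

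PDE_05223 and PDE_05594 have no annotation here. PDE_05223 had 228, 245 and 217 RPKM in the wild-type on cellulose, 300, 185 and 131 in Δ*clrB*, 184, 172 and 210 in Δ*creA*, and 73.7, 44.0 and 33.3 in Δ*creA*-Δ*clrB*. PDE_05594 had 81.5, 82.1 and 88.2, then 60.01, 55.9 and 45.5, then 69.5, 58.7 and 64.9, and 23.6, 13.0 and 9.24 RPKM in the same order. In both the first double deletion library was the highest of its group, which held for 16 of the 26 genes, a count not set beside all genes. With library totals the genes parted in Δ*creA-gpdA*(p)::*clrB*, where PDE_05223 had 97.9 ± 11.4 RPKM and PDE_05594 102 ± 56.6 (SD, n = 3), that is 0.425 and 1.22 of the wild-type mean. With TMM scaling PDE_05223 had 137 RPKM there against 192 in the wild-type on cellulose, and PDE_05594 had 144 against 70.0.

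PDE_00633, PDE_03861 and PDE_07433, again without a known function, stayed in the set with any 1 of the 15 libraries left out. PDE_03861 had 51.5, 50.3 and 56.0 RPKM in the wild-type on cellulose, 33.4, 35.4 and 28.6 in Δ*clrB*, 37.1, 34.2 and 41.6 in Δ*creA*, and 12.9, 9.001 and 10.5 in Δ*creA*-Δ*clrB*. PDE_00633 fell to 4.76, 6.62 and 5.24 RPKM in the double deletion, from means of 26.6 in the wild-type on cellulose, 18.1 in Δ*clrB* and 32.2 in Δ*creA*. PDE_07433 had 3.65, 4.00 and 5.13 RPKM there, from means of 15.9, 11.7 and 18.9. The last 2 rest on few reads, 16 to 35 in each double deletion library.

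PDE_07989 and PDE_07990 have adjoining locus numbers, the only such pair among the 26. PDE_07989 had 17.98, 22.8 and 20.1 RPKM in the wild-type on cellulose, 17.6, 14.8 and 10.1 in Δ*clrB*, 34.9, 20.9 and 38.1 in Δ*creA*, and 7.04, 2.21 and 5.16 in Δ*creA*-Δ*clrB*. PDE_07990, the shortest of the set with a coding length of 186 bases, had 13.9, 16.8 and 19.3, then 18.2, 9.28 and 8.81, then 37.8, 22.1 and 33.0, and 6.06, 2.09 and 4.13 RPKM. Its double deletion values rest on 9, 3 and 6 reads. In both genes Δ*creA* was the highest of the 4 groups and its second library the lowest of that group. The next locus, PDE_07988, was not in the set, since its mean in Δ*clrB* was 9.69 RPKM, but it had 14.1 RPKM in the wild-type on cellulose, 20.1 in Δ*creA* and 2.37 in Δ*creA*-Δ*clrB*. On the other side PDE_07991 had 10.99, 5.40 and 7.78 RPKM in those 3 groups.

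PDE_02264, a hypothetical protein, was among the less abundant genes. It had 14.9, 19.99 and 23.3 RPKM in the wild-type on cellulose, 8.41, 37.1 and 44.6 in Δ*clrB*, and 12.6, 21.1 and 10.5 in Δ*creA*. The double deletion had 3.95, 4.08 and 7.90 RPKM, below all 9 but close to the lowest Δ*clrB* library.

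PDE_01191, a hypothetical protein, was set by single libraries. It had 1567, 209 and 242 RPKM in the wild-type on cellulose, 109, 3067 and 870 in Δ*clrB*, and 111, 898 and 113 in Δ*creA*. The double deletion had 144, 94.0 and 72.2 RPKM, and Δ*amyR* had 82.5, 89.8 and 83.2. The lower libraries of Δ*clrB* and Δ*creA* overlapped the double deletion, and PDE_01191 left the set when any 1 wild-type library on cellulose was left out. It was also the gene with the highest level on glucose, 6263, 4391 and 3960 RPKM.

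The remaining 6 genes were PDE_03786, PDE_05323, PDE_05350, PDE_07212, PDE_08758 and PDE_09700, which have no annotation here. Their Δ*creA*-Δ*clrB* means were 4.05 RPKM for PDE_07212, 4.79 for PDE_05350, 6.78 for PDE_05323, 18.4 for PDE_03786, 26.8 for PDE_09700 and 27.8 for PDE_08758. Their wild-type means on cellulose ranged from 13.7 RPKM for PDE_07212 to 95.2 for PDE_08758. With library totals the single deletions stayed near the wild-type in all 6, between 0.759 of its mean in PDE_07212 and 1.11 in PDE_05323, both in Δ*creA*. On the same scale Δ*creA-gpdA*(p)::*clrB* was below 0.5 of the wild-type mean in 4 of them. The exceptions were PDE_05350 at 0.650 and PDE_08758 at 0.795. With TMM scaling none of the 4 was below 0.5. PDE_05323 then had 10.2 RPKM in Δ*creA-gpdA*(p)::*clrB* against 17.1 in the wild-type, and PDE_09700 had 56.1 against 70.4. In library totals PDE_05323 was nearly as low in Δ*creA-gpdA*(p)::*clrB*, at 7.23 ± 2.91 RPKM, as in the double deletion, at 6.78 ± 2.75 RPKM (SD, n = 3).

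PDE_07838, a hypothetical protein, was the gene nearest to the limit. It had 52.5, 53.3 and 52.7 RPKM in the wild-type on cellulose, 65.5, 54.2 and 55.1 in Δ*clrB*, 74.8, 58.2 and 65.7 in Δ*creA*, and 25.8, 13.6 and 23.7 in Δ*creA*-Δ*clrB*. Its ratio to the lowest of the 3 means was 0.398, after 0.395 for PDE_09700 and 0.393 for PDE_00248. Just outside the limit were PDE_00024 at 0.402, PDE_05174 at 0.403 and PDE_05738 at 0.411. PDE_05174 had 8.17 RPKM in the double deletion, with 20.3 in Δ*creA*, 29.8 in Δ*clrB* and 34.6 in the wild-type on cellulose, so the limit parts genes of like pattern.

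The set depends on how libraries are scaled. With TMM effective library sizes, which correct for a few abundant genes taking up reads, the ratio of the double deletion to the lowest of the 3 means ran from 0.266 to 0.546, with a median of 0.417 in place of 0.350, and 25 of the 26 genes stayed below 0.5. The median ratio over the 6200 genes was 1.24 with TMM and 1.13 with library totals. The rule then chose 9 genes, of which 8 were among the 26: PDE_00553, PDE_00633, PDE_01191, PDE_02264, PDE_05223, PDE_05594, PDE_06451 and PDE_07927. Leaving out the first Δ*creA*-Δ*clrB* library raised the set to 48 genes, leaving out the second or the first Δ*clrB* library lowered it to 19, and 10 of the 26 were kept whichever of the 15 libraries was left out.

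**Figure D3:**
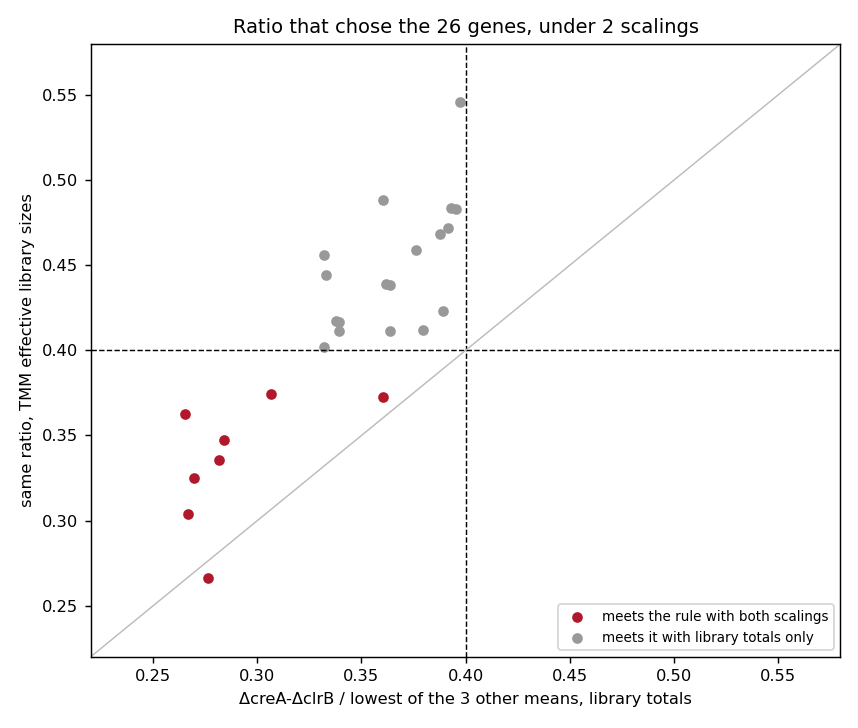
Each point is 1 of the 26 genes, with the ratio of its Δ*creA*-Δ*clrB* mean to the lowest of the means of wild-type, Δ*clrB* and Δ*creA* on cellulose, computed with library totals (horizontal axis) and with TMM effective library sizes (vertical axis). Dashed lines mark the limit of 0.4 and the grey line marks equal values; 8 genes (red) lie below the limit on both axes.

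Of 18 predicted cellulase genes, 6 were below 10 RPKM in the wild-type on cellulose, Δ*clrB* or Δ*creA* and could not qualify whatever the double deletion did. The other 12 were not among the 26: their ratios to the lowest of the 3 means ran from 0.672 for PDE_09014 to 5.82 for PDE_00507. Of 6 regulators of plant polymer breakdown 3 were below that minimum, *clrB* and *creA* through their own deletion and PDE_05883 (*clrB-2*) at 6.86 RPKM in Δ*clrB*. The ratios of the other 3 ran from 0.940 for *amyR* (PDE_03964) to 2.21 for PDE_01988.

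Carbon source in the wild-type strain was the first question the choice of genes had not used, since glucose and no carbon played no part in it. On glucose 15 of the 26 genes (57.7%) were lower than without carbon and 1 was higher, against 23.1% lower and 19.5% higher among all 9176 genes tested. Among the 6200 genes above 10 RPKM these shares were 21.7% and 18.5%. The median log2 fold change was -1.45 over the 26 genes and 0.05 over all genes (edgeR quasi-likelihood test, called at a Benjamini-Hochberg adjusted p under 0.05 and an absolute log2 fold change above 1).

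The greatest decrease was that of the metalloendopeptidase gene PDE_07936, which had 392, 1132 and 522 RPKM without carbon and 19.7, 20.5 and 23.7 on glucose. Its log2 fold change was -4.77 ± 0.64 (SE), with an adjusted p of 1.36e-06 in the edgeR test. PDE_09700 had 115, 141 and 105 RPKM without carbon and 6.80, 3.82 and 7.01 on glucose, a log2 fold change of -4.13 ± 0.43 (SE; edgeR adjusted p = 3.8e-08). PDE_07838 had 20.1, 24.6 and 18.9 against 2.02, 1.08 and 2.46 RPKM, a log2 fold change of -3.29 ± 0.29 (SE; edgeR adjusted p = 3.23e-09). No library on glucose reached any library without carbon in these 3 genes.

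The enzymes with an annotation went the same way. On glucose the log2 fold change was -1.59 ± 0.25 (SE) for the α-xylosidase PDE_06944, -2.18 ± 0.28 for the α-L-rhamnosidase PDE_06451, and -1.26 ± 0.34 for aspergillopepsin I PDE_07927. It was -1.98 ± 0.26 (SE) for the ClpX-type PDE_04541 and -1.66 ± 0.16 for the oxidoreductase PDE_03360, and all 5 were called lower. The SUN domain-containing PDE_00248 was not called, at 0.28 ± 0.27 (SE).

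PDE_01191 was the 1 gene called higher on glucose. Its libraries without carbon had 672, 127.6 and 125.0 RPKM, 1 of them far above the other 2, and those on glucose had 6263, 4391 and 3960. The groups did not overlap, and the log2 fold change was 4.13 ± 1.13 (SE; edgeR adjusted p = 0.00302).

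**Figure D4:**
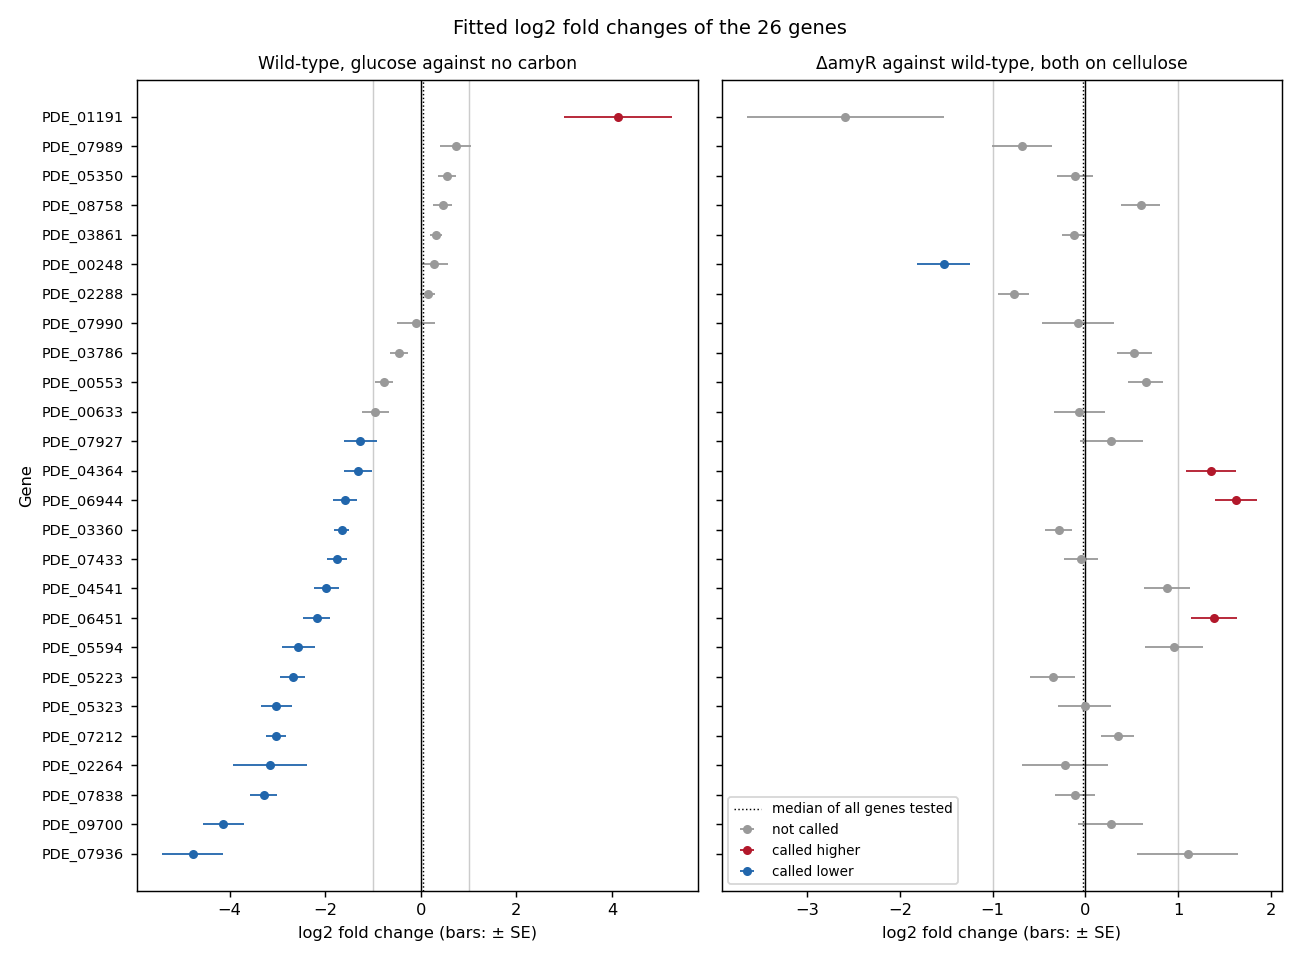
Log2 fold changes of the 26 genes with standard errors from the edgeR fit, for glucose against no carbon in the wild-type (left) and for Δ*amyR* against the wild-type on cellulose (right, on its own axis range), with genes in 1 order; grey vertical lines mark the fold limit. On the left 15 genes were called lower and 1 higher, and on the right 1 lower and 3 higher.

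The wild-type on cellulose was compared with both other media. The choice of genes used the cellulose level as a minimum of 10 RPKM, as a reference for Δ*creA*-Δ*clrB* and as a limit for Δ*creA-gpdA*(p)::*clrB*. The shares called are therefore not independent of the choice, nothing is read from them against all genes, and the 2 comparisons share the cellulose libraries. Against no carbon, 9 genes (34.6%) were higher and 0 lower, beside 3.02% higher and 5.22% lower of all genes tested and 3.65% higher and 2.19% lower of the 6200. No gene of the 26 was lower at an unadjusted p under 0.05 in the edgeR test either, and limma and DESeq2 called 0 lower. The median log2 fold change was 0.65 over the 26 genes and 0.00 over all genes. With library totals in place of TMM the calls over all genes went from 277 higher and 479 lower to 200 and 741, and those over the 26 genes from 9 to 7 higher.

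The α-xylosidase gene PDE_06944 rose most against no carbon, from 9.86, 13.8 and 10.8 RPKM to 97.3, 102 and 86.9, with no overlap and a log2 fold change of 3.25 ± 0.25 (SE; edgeR adjusted p = 5.85e-09). The metalloendopeptidase gene PDE_07936 had a log2 fold change of 2.03 ± 0.56 (SE; edgeR adjusted p = 0.0124), and this call was lost without the first or the third library without carbon (1.78 and 1.86) or the first on cellulose (1.59). PDE_02264 had 9.32, 3.46 and 5.18 RPKM without carbon, a log2 fold change of 1.84 ± 0.50 (SE; edgeR adjusted p = 0.0106), and its call was lost without the second of these libraries (1.55). The α-L-rhamnosidase PDE_06451 rose by 1.71 ± 0.25 (SE) on the log2 scale and the oxidoreductase PDE_03360 by 1.61 ± 0.15. Leaving out the first or the third library without carbon lowered the count of genes called higher from 9 to 6.

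Against glucose, 16 genes (61.5%) were higher on cellulose and 1 lower, beside 22.6% higher and 21.7% lower of all genes tested and 23.1% and 18.9% of the 6200. The cellulose level was again among the values that chose the genes, and the glucose libraries are shared with the comparison of glucose against no carbon. The log2 fold change was 6.80 ± 0.70 (SE) for PDE_07936, 5.0 ± 0.70 for PDE_02264 and 4.84 ± 0.27 for PDE_06944, with edgeR adjusted p of 3.18e-08, 2.34e-06 and 4.73e-12. PDE_02264 had 4, 3 and 3 reads on glucose. The gene called lower was PDE_01191, at -2.86 ± 1.07 (SE; edgeR adjusted p = 0.022), a call lost without the first glucose library (-2.62) or without the second (-2.43) or the third (-2.45) cellulose library.

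Deletion of *amyR* was the other condition the choice of genes had not used. Its reference here, the wild-type on cellulose, was a group the choice did use, so the shares are given as a description. In Δ*amyR* 3 of the 26 genes (11.5%) were higher and 1 was lower, beside 3.36% higher and 4.18% lower of all genes tested and 3.6% and 3.55% of the 6200. The median log2 fold change was -0.03 over the 26 genes and -0.02 over all genes. Scaling weighed on this comparison: with library totals the median of all genes was -0.43, the calls over all genes went from 308 higher and 384 lower to 150 and 1062, and those over the 26 genes became 1 higher and 4 lower.

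The 3 genes higher in Δ*amyR* were the α-xylosidase PDE_06944, the α-L-rhamnosidase PDE_06451 and PDE_04364. With library totals these are 3 of the 5 genes with a Δ*clrB* mean of at most 0.5 of the wild-type mean. The other 2 of those 5 were PDE_00248, called lower, and PDE_04541, not called, with a log2 fold change of 0.88 ± 0.25 (SE). PDE_00553, at 0.5005, just missed that limit and was not called. With TMM scaling PDE_04541 had 73.8 RPKM in Δ*clrB* against 131 in the wild-type on cellulose, above the limit. The limit uses means that chose the genes, so no link to Δ*amyR* is read from it. PDE_06944 had 233, 227 and 200 RPKM in Δ*amyR*, above its 3 wild-type libraries, with a log2 fold change of 1.62 ± 0.23 (SE; edgeR adjusted p = 6.11e-05). The study, from the same libraries, also lists PDE_06944 among the genes raised in Δ*amyR*. PDE_06451 had 106, 88.1 and 75.0 RPKM and a log2 fold change of 1.38 ± 0.25 (SE; edgeR adjusted p = 0.000643). PDE_04364 had 122.6, 129 and 91.7 RPKM and a log2 fold change of 1.35 ± 0.27 (SE; edgeR adjusted p = 0.00179). The calls of PDE_06451 and PDE_04364 were lost with library totals (0.97 and 0.93) and with limma (0.94 and 0.92 at a pseudocount of 1), which left them just under the fold limit.

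The gene lower in Δ*amyR* was the SUN domain-containing PDE_00248, with 25.6, 18.8 and 17.3 RPKM against 63.3, 79.1 and 95.1 in the wild-type. The groups did not overlap, and its log2 fold change was -1.53 ± 0.28 (SE; edgeR adjusted p = 0.000897). PDE_02288 had a log2 fold change of -0.77 ± 0.17 (SE; edgeR adjusted p = 0.0027), which did not reach the fold limit.

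Δ*amyR* on cellulose was also set against the wild-type without carbon, a pair of groups the choice used in no way but that differ in both strain and medium. The libraries without carbon are shared with the comparisons of glucose and of cellulose against no carbon, so the counts are not independent of those. Of the 26 genes 11 (42.3%) were higher and 0 lower, beside 6.2% higher and 11.2% lower of all genes tested and 7.63% and 5.6% of the 6200. In the edgeR fit 2 genes were lower at an unadjusted p under 0.05, DESeq2 called 0 lower and limma 3. PDE_06944, PDE_07936 and PDE_06451 had the greatest increases, with log2 fold changes of 4.87 ± 0.26, 3.13 ± 0.58 and 3.10 ± 0.26 (SE) and edgeR adjusted p of 1.23e-11, 0.000261 and 2.14e-08. With library totals the median of all genes was -0.66, the calls over all genes went from 569 higher and 1025 lower to 247 and 2750, and 6 of the 26 genes were higher and 3 lower.

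The cellulase genes gave these counts in the same tests. Of the 18 predicted cellulases 10 were lower and 3 higher on glucose than without carbon, 10 were higher on cellulose than without carbon and 0 lower, and 11 were higher and 1 lower in Δ*amyR* than in the wild-type on cellulose. No difference between the 26 genes and the cellulases was tested. In none of the 5 comparisons were PDE_00633, PDE_02288, PDE_03786, PDE_03861, PDE_05350, PDE_07990 and PDE_08758 called.

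In Δ*creA*-Δ*clrB* the 26 genes had 3 to 8542 reads per library, and 10 genes had fewer than 100 reads in each of its libraries. The median coefficient of variation between the 3 libraries was 21.7% in Δ*creA*-Δ*clrB* and 24.4% in Δ*clrB*, against 9.72% in the wild-type on cellulose and 10.3% in Δ*creA*. Coding length had a median of 1065 bases for the 26 genes and 1140 for all genes.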

How the data were processed

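The authors mapped Illumina reads with SOAP2 (version not given in the sources used here) against the transcripts predicted from the genome and deposited 1 table for all samples. The submitters' processing notes name CASAVA 1.8. The deposited table gives, per gene and library, the count of uniquely mapped reads, the RPKM that the authors computed on the total of those reads, and the percent of the coding length covered by reads. A hyphen was read as 0 reads. The 3 libraries of a group are biological replicates by the study's methods.

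Genes that reached 1 RPKM in 3 or more of the 24 libraries were tested (9176, including all 26), on the deposited counts, with edgeR 4.0.16 in R 4.3.3, in 1 quasi-likelihood fit of 8 groups with TMM scaling. A call needed an adjusted p (Benjamini-Hochberg over all genes tested) under 0.05 and an absolute log2 fold change above 1. Tables and plots used Python 3.11.15, pandas 2.3.3 and matplotlib 3.10.9. The scripts were tested on simulated data. The members, gene lists and tests were chosen with earlier results of these data known.

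Alternatives were limma 3.58.1 on log2(RPKM + 1) and log2(RPKM + 0.1), DESeq2 1.42.0, no filter, library totals, median-ratio factors, a fit of only 2 groups, a replicate block, each library left out in turn, and other limits for the choice of genes. Genes were named by rule: the 12 lowest ratios, the 5 highest means, up to 3 greatest non-overlapping called changes per direction and comparison, the 3 nearest on each side of the limit, and *clrB*, *creA* and *amyR*. The other genes of the set, the neighbours, the annotated genes outside that rule and the genes singled out among the cellulases and regulators were named after their values were seen. Annotation came from the study's supplementary tables.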

Additional observations from a re-analysis of the deposited data

How the results depend on the processing

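With 3 libraries a group, the p-values rest on the spread of these cultures, and in Δ*creA*-Δ*clrB* some values rest on few reads. The number of genes chosen, 26, was 9 with TMM, 6 with a ratio limit of 0.3 and 72 with 0.5. It was 59 with a level minimum of 1, and 19 to 48 with each library left out. Medians of the libraries in place of means chose 27 genes, of which only 17 were among the 26. For Δ*amyR* against the wild-type on cellulose, 1 gene was higher and 3 lower with limma at either pseudocount, 1 and 4 with library totals, and 2 were lower in a fit of only those 2 groups (leaving out libraries gave 3 to 5 higher and 1 to 2 lower). For Δ*amyR* against the wild-type without carbon, 7 were higher and 3 lower with limma at either pseudocount, and 6 and 3 with library totals (10 to 11 and 0 to 1 with libraries left out). On cellulose against glucose, 0 to 1 were lower with libraries left out. The cause was not tested. None of the 18 log2 fold changes recomputed, those of the genes named for a called change, changed direction under any alternative run. Replicate numbers did not pair the libraries (correlations of -0.15 to 0.18 between same-numbered libraries), and with the replicate number as a block the counts were 15 lower and 1 higher on glucose against no carbon, 9 and 16 higher on cellulose against no carbon and glucose, 3 higher in Δ*amyR* against the wild-type on cellulose and 11 against no carbon, each as without the block.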
